A study of Homo sapiens with 60 samples.

Results

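The comparison set cells given the high dose of Menthae Herba against cells given its low dose. Menthae Herba is the dried above-ground part of mint, used in Korean and Chinese medicine and given here as a hot-water extract. The cells were HT29, a long-established epithelial line from a human colon tumour, and they received 500 µg/mL (high dose, 3 libraries) or 20 µg/mL (low dose, 3 libraries) for 24 h. These 6 libraries were chosen by extract and dose from the 60 in the deposited table, without use of any measured value. All genes were compared, and no vehicle library entered the contrast. The medium dose of the same extract (100 µg/mL, 3 libraries) was used to place the change along the dose series. The same contrast of 500 against 20 µg/mL in another single herb, Saposhnikoviae Radix, and in the multi-herb formula Soyo-san (6 libraries each) was used to see where the mint extract differed. The study as a whole exposed HT29 to extracts of herbs and formulas at 3 doses and sequenced the cells' RNA as paired ends. Libraries that its design text calls outliers from low RNA had been left out by the submitters. HT29 is 1 tumour line with its own mutations, and the labels do not say whether replicates came from separate cultures. The p-values use 1 spread estimated over 57 libraries in 19 groups of the study, vehicle and other extracts included, and part or all of that spread can be technical.

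The pathways that carried the largest rises are well described in gut epithelium. The aryl hydrocarbon receptor (AhR) is a transcription factor that binds plant-derived indoles, flavonoids and aromatic pollutants, moves to the nucleus with its partner ARNT and switches on CYP1 oxidases and other enzymes of foreign-compound metabolism. NRF2 is held down by KEAP1 until electrophiles or oxidants modify KEAP1, after which it raises enzymes of glutathione synthesis, NADPH supply, iron storage and carbonyl reduction. Metallothioneins are small cysteine-rich proteins that bind zinc and copper, and the zinc-sensing factor MTF1 raises their transcription when free zinc increases.

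Depth was similar at the high and the low dose of Menthae Herba. Total expected counts, in units of 1000000, ran from 33.3 to 35.5 in the high-dose libraries, 31.0 to 37.5 in the low-dose ones and 23.5 to 38.4 in the medium-dose ones. Mitochondrially encoded genes took 11.1% to 12.1% of counts at the high dose and 11.3% to 11.7% at the low dose, so the groups overlapped. One medium-dose library, replicate 2, stood lower at 9.74%. The epithelial label held: KRT8, an epithelial keratin, was at 6096, 6160.1 and 5965 CPM (counts-per-million: a gene's count divided by its library's TMM-scaled total, times 1000000) at the low dose and 6632, 6202 and 6499 at the high dose. The summed level of the 12 epithelial markers ran from 12064 to 12229.9 CPM at the low dose and from 12317 to 13024 at the high dose. KRT8 made up a large part of that sum. Taken singly, 3 of the 12 had high-dose values wholly above their low-dose ones and 6 wholly below, against 11.4% and 10.8% of all genes. In the test described below, 0 of the 12 rose and 2 fell, CDH1 and VIL1, against 1.13% and 1.23% of all genes. The CDH1 call was lost in 5 of 12 alternative settings. Markers of other cell types stayed near 0, with 2 of 10 fibroblast, 3 of 8 endothelial and 0 of 8 neural markers above the low-count filter. KDR, CD3D, MS4A1 and SOX10 had 0 counts in all 6 libraries. Leukocyte markers summed to 1501 to 1566 CPM at the low dose and 1533 to 1579.9 at the high dose, nearly all of it LYZ, the lysozyme that gut epithelium also makes, while PTPRC, the pan-leukocyte marker, had 1 count at the low dose and 2 at the high dose.

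In all, 402 of 17049 genes tested (2.36%) differed between the high and the low dose at an adjusted p under 0.05 in edgeR's quasi-likelihood test, with p-values adjusted by Benjamini-Hochberg over all genes tested. Changes are given as log2 fold changes of the high over the low dose, on which 1 stands for a 2-fold rise and -1 for the same fall, and each ± beside one is its standard error. Of these, 192 (1.13% of genes tested) were higher and 210 (1.23%) lower at the high dose. Most changes were modest, with a median log2 fold change of 0.27 among the genes that rose and -0.33 among those that fell. Changes of 1 or more on the log2 scale were seen in 3 genes that rose and 9 that fell, and 25 and 58 genes passed 0.5. The largest fitted rise was that of ENSG00000258964, a non-coding transcript with 0 CPM in all 3 low-dose libraries and 0.398, 0.0870 and 0.397 CPM at the high dose, for which no fold is given. Protein-coding genes made up 183 of the rises and 199 of the falls. The 3 high-dose values lay wholly outside the 3 low-dose values for every one of the 402 genes. The same complete separation was seen in 22.2% of all genes tested, 11.4% upwards and 10.8% downwards. The median over all genes was 0.0035, a value that TMM scaling itself sets close to 0. The count of 402 fell to 266 without low-dose replicate 2, low-dose replicate 3 or high-dose replicate 2 and to 251 without high-dose replicate 3, and it was 674 in a fit of the 6 libraries alone.

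**Figure D1:**
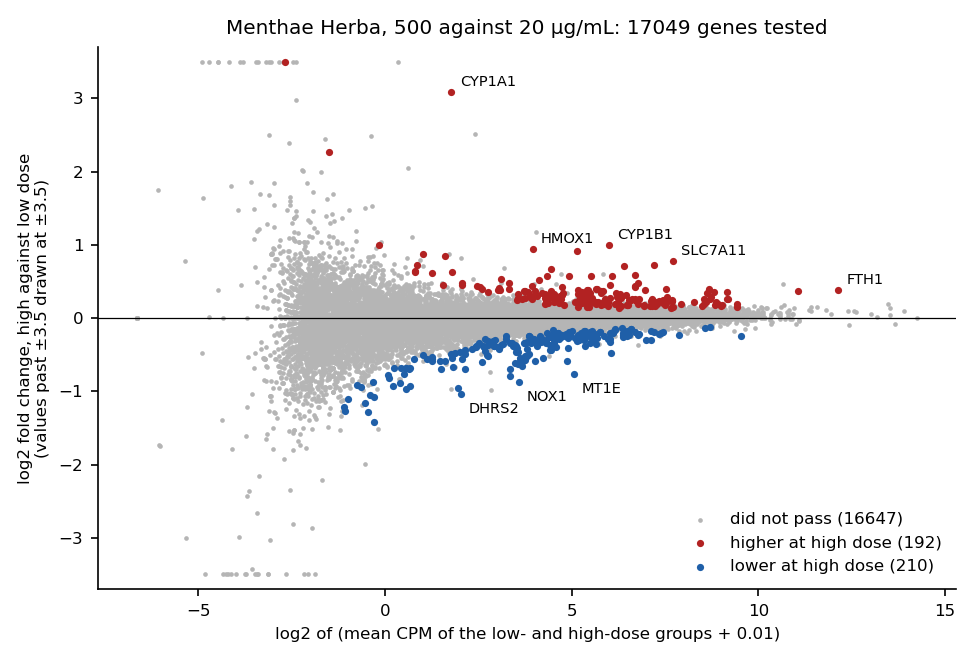
Each point is 1 of the 17049 genes tested. The horizontal axis gives the log2 of its mean CPM over the low- and high-dose groups (with 0.01 added) and the vertical axis its log2 fold change at the high against the low dose. Red points are the 192 genes that were higher and blue points the 210 that were lower at an adjusted p under 0.05. Values past 3.5 in either direction are drawn at 3.5. The red point drawn at 3.5 is ENSG00000258964, a low-count gene at 0 in all low-dose libraries. CYP1A1 lies at 3.09, and most coloured points lie within 0.5 of 0.

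Genes of the AhR response rose together, led by CYP1A1 and CYP1B1. In the AhR list, 5 of 10 measured members rose and 0 fell, against 1.13% of all genes that rose, and the count was 5 under each alternative setting and with any 1 of the 6 libraries left out. Its median log2 fold change was 0.28, against 0.0035 over all genes tested. CYP1A1 (ENSG00000140465, chr15:74719542-74725610, GRCh38), the monooxygenase most closely tied to AhR activity, was at 0.720, 0.763 and 0.663 CPM at the low dose and 6.71, 5.71 and 5.98 CPM at the high dose. All 3 high-dose libraries thus lay far above all 3 low-dose ones, and the fold was 8.51 (log2 3.09 ± 0.24, 95% interval 2.60 to 3.58, edgeR adjusted p = 3.53e-13). The DMSO vehicle libraries had 0.336, 0.576 and 0.550 CPM. CYP1B1 (chr2:38066973-38109902), a related oxidase of oestrogens and polycyclic compounds, stood at 46.8, 41.6 and 40.4 CPM at the low dose and 90.0, 83.6 and 83.5 at the high dose. Its groups did not overlap, and the log2 fold change was 1.00 ± 0.07 (adjusted p = 6.95e-14), a 2.00-fold rise.

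Other AhR-linked enzymes rose less. TIPARP, a mono-ADP-ribosyltransferase that the receptor induces and that restrains it in turn, was at 90.9, 81.3 and 77.6 CPM at the low dose and 129, 124 and 121 at the high dose. The log2 fold change was 0.58 ± 0.06 (adjusted p = 1.47e-10). ALDH3A1, a dehydrogenase of aromatic and lipid aldehydes, went from 24.2, 24.1 and 25.8 to 46.5, 46.9 and 46.4 CPM, with no overlap and little spread in either group (log2 0.92 ± 0.09, adjusted p = 3.04e-09). NQO1, a quinone reductase that answers to AhR and NRF2 alike, went from 511, 502 and 484 to 632, 643 and 636 CPM (log2 0.35 ± 0.05, adjusted p = 2.84e-06). The receptor itself did not pass the test: AHR had a log2 fold change of -0.06 ± 0.05 and ARNT, its partner, of -0.11 ± 0.06. AHRR, the repressor that competes with AHR for ARNT and is often raised with CYP1A1, was at 5.46, 6.40 and 6.07 CPM at the low dose and 7.31, 6.44 and 6.87 at the high dose, with a log2 fold change of 0.20 ± 0.08 and an adjusted p of 0.278. CYP1A2, the liver member of the family, had 0 counts over the low-dose libraries and 1 over the high-dose ones.

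The bases just before the start of the first exon of CYP1A1 and TIPARP are given because these genes rose with the receptor's other targets. The core of the DNA element bound by AhR and ARNT is GCGTG, searched on both strands of the 250 bases before each RefSeq start, and its matches are in capitals. It was found in 31.6% of 27305 RefSeq promoters of this length, so a match in itself is common. CYP1A1 held 1 match, 57 bases before the start, and TIPARP 2, with CACGC the same letters on the other strand, at 208 and 142 bases before it. Of the 7 AhR-list genes with a RefSeq promoter, 4 held at least 1. Both are shown 5′ to 3′ in the direction of transcription (RefSeq, GRCh38.p14; CYP1A1 at chr15:74725529-74725778 on the reverse strand, TIPARP at chr3:156674340-156674589 on the forward strand).
CYP1A1: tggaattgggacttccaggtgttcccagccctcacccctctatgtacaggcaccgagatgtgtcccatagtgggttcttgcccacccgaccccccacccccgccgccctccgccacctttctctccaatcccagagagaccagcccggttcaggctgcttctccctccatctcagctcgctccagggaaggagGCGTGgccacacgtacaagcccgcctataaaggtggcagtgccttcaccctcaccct
TIPARP: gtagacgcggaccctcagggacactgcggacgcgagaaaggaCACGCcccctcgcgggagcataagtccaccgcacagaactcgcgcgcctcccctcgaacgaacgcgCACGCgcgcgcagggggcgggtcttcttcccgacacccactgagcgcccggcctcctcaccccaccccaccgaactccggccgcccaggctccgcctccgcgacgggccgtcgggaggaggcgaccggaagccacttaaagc

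Many genes of NRF2-linked oxidant defence rose. Over 4 lists (glutathione synthesis and cystine import, haem oxygenase and iron handling, aldo-keto reductases, and NADPH and thioredoxin enzymes), 24 of 48 measured genes rose and 2 fell, against 1.13% and 1.23% of all genes. Complete separation upwards was seen in 37 of the 48, against 11.4% of all genes, and the median log2 fold change was 0.23. These lists and the AhR list were written with earlier results of these data known. Their shares describe the data and are not independent support. NQO1 is counted here and in the AhR list.

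In glutathione synthesis and cystine import, 7 of 12 members rose and 1 fell, against 1.13% and 1.23% of all genes. With any 1 of the 6 libraries left out, 4 to 5 rose. SLC7A11, the cystine importer that supplies cysteine for glutathione, was at 182, 163 and 118 CPM at the low dose and 261, 271 and 264 at the high dose. The high-dose libraries agreed closely, the low-dose ones were spread with replicate 3 lowest, and the groups did not overlap (log2 0.78 ± 0.13, 95% interval 0.51 to 1.05, adjusted p = 0.000173, but 0.127 in a fit of the 6 libraries alone). GCLM, the modifier subunit of glutamate-cysteine ligase, the rate-limiting enzyme of glutathione synthesis, went from 67.7, 65.6 and 60.8 CPM to 103, 111 and 104 (log2 0.71 ± 0.07, adjusted p = 1.92e-09). Its catalytic partner GCLC rose by 0.44 ± 0.06 (adjusted p = 1.87e-07). GSR, which regenerates reduced glutathione, rose by 0.22 ± 0.04 (adjusted p = 0.000107). GGT1, which breaks glutathione down at the cell surface, was the member that fell, from 5.85, 6.74 and 5.75 to 4.55, 4.20 and 5.28 CPM (log2 -0.39 ± 0.10, adjusted p = 0.0135), but 0 members fell without low-dose replicate 2, high-dose replicate 1 or high-dose replicate 2. GSS, the second enzyme of glutathione synthesis, had a log2 fold change of -0.05 ± 0.04 and did not pass.

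Among haem and iron genes, 4 of 14 rose and 1 fell, against 1.13% and 1.23% of all genes. The counts were the same with any 1 library left out. HMOX1 (ENSG00000100292, chr22:35380361-35394214), haem oxygenase 1, which splits haem into biliverdin, iron and carbon monoxide, was at 10.4, 11.9 and 9.51 CPM at the low dose and 20.9, 20.4 and 19.9 at the high dose. All high-dose values were near 20 CPM and no low-dose value reached 12, a log2 fold change of 0.94 ± 0.10 (adjusted p = 6.08e-10). The ferritin chains, which store iron, rose in step: FTH1 went from 3796, 3995 and 4033 to 5071, 5072 and 5269 CPM (log2 0.38 ± 0.06) and FTL from 1828, 1892 and 1878 to 2456, 2479 and 2318 (log2 0.37 ± 0.06), with adjusted p-values of 2.79e-05 and 2.82e-05. Both have many processed copies in the genome, so part of their reads may have been divided among those. ALAS1, which begins haem synthesis, rose by 0.39 ± 0.06 (adjusted p = 9.11e-06). SLC40A1, ferroportin, the only known iron exporter of animal cells, fell by 0.23 ± 0.04 (from 89.2, 88.5 and 89.9 to 75.4, 76.7 and 75.9 CPM, adjusted p = 9.40e-05). TFRC, the transferrin receptor, had a log2 fold change of 0.13 ± 0.06 and did not pass.

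Aldo-keto reductases reduce carbonyl groups of aldehydes, steroids and xenobiotics. Of 8 measured, 4 rose and 0 fell, against 1.13% and 1.23% of all genes. With any 1 library left out, 4 rose as well. AKR1B10 (chr7:134527592-134541408), a retinal and aldehyde reductase of gut epithelium, went from 114, 109 and 109 to 189, 186 and 173 CPM (log2 0.72 ± 0.09, adjusted p = 1.14e-06). The neighbouring genes AKR1C3, AKR1C2 and AKR1C1 on chromosome 10, which encode hydroxysteroid dehydrogenases, rose by 0.58 ± 0.11, 0.57 ± 0.10 and 0.37 ± 0.07. Their adjusted p-values were 0.00127, 0.000209 and 0.00109. These 3 are near-identical in sequence, so how the rise divides between them depends on how shared reads were split.

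All 14 measured NADPH and thioredoxin enzymes had high-dose values wholly above their low-dose ones, against 11.4% of all genes. Of them 9 passed the test, against 1.13% of all genes that rose (7 to 8 with any 1 library left out). TXNRD1, thioredoxin reductase 1, went from 363, 354 and 350.1 to 475, 482 and 451 CPM (log2 0.40 ± 0.05, adjusted p = 4.24e-07). ME1, the malic enzyme that makes NADPH in the cytosol, went from 92.7, 89.1 and 84.7 to 117, 122 and 119 (log2 0.43 ± 0.05, adjusted p = 3.62e-09). OSGIN1, an oxidative-stress-induced growth inhibitor, rose by 0.52 ± 0.10 (adjusted p = 0.000548). PRDX1, TXN and PGD had log2 fold changes of 0.09, 0.13 and 0.14 and did not pass.

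Of 10 genes in the list of NRF2 and its regulators, 1 rose and 0 fell, against 1.13% and 1.23% of all genes. It was SQSTM1 (p62, an autophagy receptor that binds KEAP1), which went from 350.2, 352 and 344 to 400.2, 398 and 392 CPM (log2 0.19 ± 0.04, adjusted p = 0.00136). Complete separation was seen upwards in 4 of the 10 and downwards in 0, against 11.4% and 10.8% of all genes. In edgeR 5 of the 10 had an unadjusted p under 0.05, all upwards, against 12.5% of all genes in either direction. NFE2L2, which encodes NRF2, and KEAP1 had log2 fold changes of 0.11 ± 0.04 and 0.14 ± 0.05 and did not pass. BACH1, a repressor at the same DNA elements, was at 0.05 ± 0.08.

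The core of the antioxidant response element, to which NRF2 binds with small MAF proteins, is TGACNNNGC, searched on both strands as before. It was present in 11% of RefSeq promoters. GCLM held 1 match (34 bases before the start, read on the opposite strand) and TXNRD1 1 (99 bases before the start), shown because they stand for the glutathione and thioredoxin arms. In the list of NADPH and thioredoxin enzymes 4 of 11 promoters had a match, and in that of glutathione synthesis 3 of 8. The haem and iron list had 1 of 12 and the aldo-keto reductases 1 of 7. In the metallothionein and zinc list, where most calls were falls, 3 of 5 had a match. Whether matches bear on the changes was not tested. GCLM lies at chr1:93909431-93909680 on the reverse strand and TXNRD1 at chr12:104215529-104215778 on the forward strand, with the matches in capitals.
GCLM: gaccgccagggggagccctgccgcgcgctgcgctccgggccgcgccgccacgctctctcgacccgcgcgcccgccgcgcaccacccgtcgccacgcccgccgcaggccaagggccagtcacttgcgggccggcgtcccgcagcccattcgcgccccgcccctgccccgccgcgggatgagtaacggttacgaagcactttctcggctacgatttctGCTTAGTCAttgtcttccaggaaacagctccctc
TXNRD1: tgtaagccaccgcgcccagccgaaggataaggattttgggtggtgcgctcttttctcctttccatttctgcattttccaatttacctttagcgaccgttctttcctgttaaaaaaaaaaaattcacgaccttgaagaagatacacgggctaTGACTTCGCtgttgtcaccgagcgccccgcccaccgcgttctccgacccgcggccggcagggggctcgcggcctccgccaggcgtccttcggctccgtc

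In the list of glucuronidation and efflux, the second phase of drug metabolism, 4 of 17 rose and 0 fell, against 1.13% and 1.23% of all genes. UGT1A1, the bilirubin glucuronosyltransferase, was at 58.5, 52.4 and 54.5 CPM at the low dose and 74.6, 73.2 and 77.2 at the high dose (log2 0.44 ± 0.06, adjusted p = 4.02e-07). UGT1A6 rose by 0.37 ± 0.07 (adjusted p = 0.000162) and UGT1A10, the gut form, by 0.26 ± 0.04 (adjusted p = 4.17e-05). The UGT1A genes share all but their first exon, so their values depend on how the common reads were divided. ABCC2, an efflux pump for conjugates, had a log2 fold change of 0.57 ± 0.21 and did not pass (adjusted p = 0.18).

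**Figure D2:**
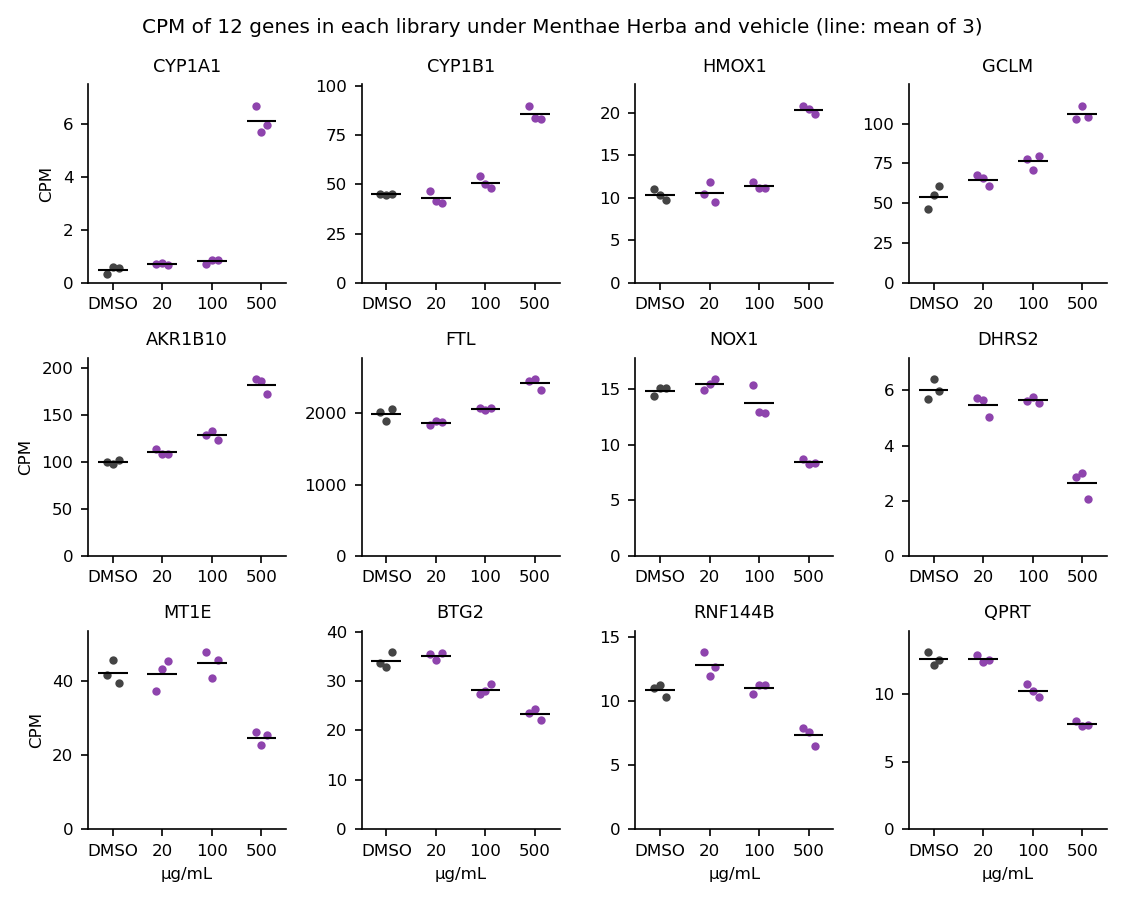
CPM of 12 genes in every library of the vehicle (DMSO) and of Menthae Herba at 20, 100 and 500 µg/mL. Points are single libraries and lines the mean of 3, and each vertical axis starts at 0. In all 12 panels the 500 µg/mL points lie apart from the 20 µg/mL points, as for every gene that passed. The medium dose lies near the low dose for CYP1A1, DHRS2 and MT1E and between the doses for GCLM, AKR1B10 and BTG2.

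Metallothioneins went the other way. Of 11 measured members of the metallothionein and zinc list, 4 fell and 1 rose, against 1.23% and 1.13% of all genes. MT1E was at 37.3, 43.2 and 45.3 CPM at the low dose and 26.1, 22.6 and 25.3 at the high dose. Every high-dose value lay well below every low-dose one (log2 -0.77 ± 0.12, adjusted p = 3.67e-05). MT2A (ENSG00000125148, chr16:56608199-56609497), usually the main human metallothionein, went from 14.8, 16.2 and 16.0 to 10.9, 8.90 and 9.98 CPM (log2 -0.66 ± 0.15, adjusted p = 0.00892, but 0.0803 without high-dose replicate 2, with a log2 fold change of -0.58). MT1X, at 1.98, 2.05 and 1.77 CPM at the low dose, was at 1.19, 0.928 and 0.824 at the high dose (log2 -0.97 ± 0.18, adjusted p = 0.000275). The low-count relatives MT1F and MT1G had log2 fold changes of -1.31 ± 0.42 and -1.13 ± 0.62 and did not pass. Their groups did not overlap, which was so downwards for 10.8% of all genes. Metallothionein genes lie side by side on chromosome 16 and resemble each other closely, so reads may have been divided among them.

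Zinc transporters changed with them. SLC30A1, the zinc exporter that MTF1 also induces, fell by 0.28 ± 0.06 (from 43.0, 40.0 and 38.2 to 35.6, 32.2 and 31.8 CPM, adjusted p = 0.00475), a call that was lost without low-dose replicate 1 or high-dose replicate 3 (adjusted p up to 0.0600). SLC39A10, a zinc importer, rose from 40.7, 39.4 and 39.1 to 47.9, 52.4 and 51.3 CPM (log2 0.35 ± 0.06, adjusted p = 0.000392). MTF1 itself had a log2 fold change of 0.05 ± 0.05 and did not pass.

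The promoters of the metallothioneins are dense in metal response elements, searched here as TGCACNC or TGCGCNC on both strands. At least 1 match was present in 24.5% of RefSeq promoters and at least 4 in 0.37%. MT2A held 7 matches and MT1X 4 in the 250 bases before the start, in capitals below. One of the 7 in MT2A overlaps the only GCGTG of that promoter. MT2A lies at chr16:56608334-56608583 and MT1X at chr16:56682220-56682469, both on the forward strand.
MT2A: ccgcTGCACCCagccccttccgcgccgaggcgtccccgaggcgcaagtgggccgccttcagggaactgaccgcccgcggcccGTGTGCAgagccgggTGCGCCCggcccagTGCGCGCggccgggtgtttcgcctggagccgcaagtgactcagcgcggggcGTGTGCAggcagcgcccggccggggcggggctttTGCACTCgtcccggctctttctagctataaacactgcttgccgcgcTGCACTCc
MT1X: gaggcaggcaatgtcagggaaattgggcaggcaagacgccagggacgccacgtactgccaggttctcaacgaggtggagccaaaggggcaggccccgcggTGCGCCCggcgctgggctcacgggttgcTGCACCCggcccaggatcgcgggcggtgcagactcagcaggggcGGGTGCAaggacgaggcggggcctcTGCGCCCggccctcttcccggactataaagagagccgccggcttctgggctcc

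Among protein-coding genes whose higher group averaged 5 CPM or more, the largest falls included NOX1, DHRS2, CD200 and RNF144B. NOX1 (ENSG00000007952, chrX:100843324-100874345), the colonic NADPH oxidase that makes superoxide, was at 14.9, 15.5 and 15.9 CPM at the low dose and 8.70, 8.26 and 8.36 at the high dose. The groups were far apart for their spread (log2 -0.87 ± 0.08, 95% interval -1.03 to -0.71, adjusted p = 1.19e-10). NOX1 was the 1 of 7 measured superoxide-producing oxidases and partners that passed, against 1.23% of all genes that fell. The NOX1 organiser NOXO1 and activator NOXA1 had log2 fold changes of -0.17 ± 0.10 and -0.30 ± 0.30. Their groups did not overlap, as in 10.8% of all genes downwards. DUOX2 was at -0.56 ± 0.62.

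DHRS2, a short-chain dehydrogenase that reduces dicarbonyls, fell most of the named genes, from 5.73, 5.63 and 5.02 to 2.87, 3.02 and 2.08 CPM (log2 -1.04 ± 0.11, adjusted p = 3.62e-09). CD200, a surface glycoprotein that restrains myeloid cells, went from 4.80, 4.82 and 5.72 to 2.62, 2.78 and 2.47 CPM (log2 -0.96 ± 0.14, adjusted p = 6.52e-06). RNF144B, an E3 ubiquitin ligase, went from 13.8, 11.98 and 12.7 to 7.93, 7.63 and 6.53 (log2 -0.80 ± 0.09, adjusted p = 9.34e-09). For all 3 genes the highest high-dose value was below the lowest low-dose one, as for every gene that passed with a fall. QPRT, which makes a precursor of NAD from quinolinate, fell by 0.69 ± 0.07 (adjusted p = 1.68e-09), with 12.9, 12.4 and 12.5 CPM at the low dose and 8.02, 7.65 and 7.72 at the high dose. The kinase gene SPEG, the GABA-A receptor subunit gene GABRP and the imino acid transporter gene SLC6A20 fell by 0.69 ± 0.11, 0.62 ± 0.07 and 0.61 ± 0.10. PRLR (prolactin receptor), ANXA13 (an annexin of gut epithelium), CHST3 (a chondroitin sulfotransferase) and PTPRO (a receptor phosphatase) fell by 0.59 ± 0.08, 0.59 ± 0.07, 0.58 ± 0.08 and 0.58 ± 0.06. These 7 genes all had adjusted p-values of 4.17e-05 or lower and kept their calls with any 1 library left out.

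BTG2, an antiproliferative gene, went from 35.5, 34.2 and 35.7 to 23.6, 24.4 and 22.1 CPM (log2 -0.59 ± 0.06, adjusted p = 2.98e-10). SESN1, a stress-induced inhibitor of growth signalling, fell by 0.29 ± 0.06 (adjusted p = 0.00245). 

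Among rises outside the oxidant and AhR lists, GPAT3, an acyltransferase of triglyceride synthesis, went from 16.4, 17.5 and 16.5 to 27.6, 26.7 and 26.0 CPM (log2 0.67 ± 0.06, adjusted p = 1.47e-10). ALDH1A3, which makes retinoic acid, went from 24.8, 24.2 and 23.9 to 37.0, 35.9 and 35.9 (log2 0.58 ± 0.07, adjusted p = 1.50e-07). It was the 1 of 11 measured retinoid genes that passed, against 1.13% of all genes that rose. ADGRF1, an adhesion receptor, and SLC22A3, an organic cation transporter, rose by 0.57 ± 0.06 and 0.53 ± 0.09 (adjusted p = 5.07e-09 and 4.91e-05). None of these 4 had overlapping groups, and neither did any other gene that passed.

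Goblet and secretory genes were mostly lower at the high dose, but few passed. Of the 18 measured, 8 had high-dose values wholly below the low-dose ones, against 10.8% of all genes, and 0 had them wholly above. Of these 18, 1 passed, against 1.23% of all genes that fell. That gene was AGR2, a disulphide isomerase needed for mucin folding, at 185, 179 and 192 CPM at the low dose and 163, 164 and 161 at the high dose (log2 -0.19 ± 0.05, adjusted p = 0.0265), a call kept only without low-dose replicate 2 among the fits that left out 1 library (adjusted p up to 0.164). MUC2, the gel-forming mucin of the colon, was at 28.0, 22.9 and 23.7 CPM at the low dose and 17.1, 17.2 and 17.8 at the high dose, with no overlap, a log2 fold change of -0.52 ± 0.15 and an adjusted p of 0.0641. ATOH1, the secretory-lineage transcription factor, had -0.48 ± 0.14 and an adjusted p of 0.0597. The count of goblet genes that fell was 0 to 2 with any 1 library left out and 1 to 6 under the other settings tried.

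Of 7 membrane-bound mucins, MUC13 fell by 0.24 ± 0.06 (adjusted p = 0.0148, up to 0.140 without high-dose replicate 2 or low-dose replicate 1), and the rest did not pass. In the list of WNT targets, 1 of 15 fell, against 1.23% of all genes, EPHB3, an ephrin receptor that places cells along the crypt (log2 -0.29 ± 0.06, adjusted p = 0.000678). AXIN2 and LGR5, the targets most used to read the pathway, had log2 fold changes of -0.03 ± 0.05 and 0.12 ± 0.06. Of 17 enterocyte genes, 2 fell: VIL1, the microvillus protein villin, by 0.19 ± 0.04 (adjusted p = 0.00137), and SLC5A1, the sodium-glucose cotransporter, by 0.34 ± 0.09 (adjusted p = 0.035). The SLC5A1 call was kept only without low-dose replicate 2 among the fits that left out 1 library (adjusted p up to 0.187). Complete separation was seen downwards in 7 of the 17 enterocyte genes and upwards in 4, against 10.8% and 11.4% of all genes. A further 11 members of that list had too few counts to be tested. Of 22 genes of the vacuolar proton pump and lysosome, 1 fell and 1 rose. ATP6V1B1, a proton pump subunit, fell by 0.55 ± 0.08 (adjusted p = 1.53e-06), and NPC1, a lysosomal cholesterol transporter, rose by 0.21 ± 0.05 (adjusted p = 0.019, up to 0.134 without low-dose replicate 2 or 3 or high-dose replicate 1 or 2).

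In the list of EGF receptor ligands and receptors, 3 of 12 rose and 0 fell, against 1.13% and 1.23% of all genes, and 3 rose with any 1 library left out as well. EREG (epiregulin) went from 88.7, 95.7 and 89.6 to 119, 127 and 134 CPM (log2 0.47 ± 0.06, adjusted p = 1.13e-06), the feedback inhibitor ERRFI1 rose by 0.24 ± 0.04 (adjusted p = 4.17e-05) and TGFA by 0.18 ± 0.04 (adjusted p = 0.00249, but 0.0518 with no filter on low counts). EGFR had 0.13 ± 0.04 and did not pass. IER3, an immediate early gene, rose by 0.33 ± 0.06 (adjusted p = 0.000617). Of 29 immediate early genes 3 rose, and 1 to 2 with any 1 library left out, while FOS and EGR1 had log2 fold changes of 0.20 ± 0.09 and 0.22 ± 0.12 and did not pass.

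Most genes of DNA replication and sugar metabolism did not pass. Of 32 measured G1/S genes, 5 rose and 0 fell, against 1.13% and 1.23% of all genes, 2 to 5 with any 1 library left out. Complete separation was seen upwards in 17 of the 32 and downwards in 1, against 11.4% and 10.8% of all genes. ORC1, of the origin recognition complex, went from 32.1, 32.7 and 31.5 to 43.4, 38.5 and 38.8 CPM (log2 0.33 ± 0.06, adjusted p = 8.33e-05), and RRM2, a ribonucleotide reductase subunit, from 290.4, 289 and 288 to 337, 340.1 and 330.1 (log2 0.22 ± 0.04, adjusted p = 0.000333). Of 30 genes of mitosis, 0 passed in edgeR, 4 had an unadjusted p under 0.05 and 0 passed in DESeq2. MKI67, the proliferation marker, had a log2 fold change of 0.06 ± 0.09. In the list of glycolysis and the hypoxia response 5 of 29 rose and 0 fell, against 1.13% and 1.23% of all genes. With any 1 library left out, 1 to 4 rose. Complete separation was seen upwards in 18 of the 29 and downwards in 0. SLC2A1, the glucose transporter GLUT1, went from 515, 522 and 511 to 631, 628 and 603 CPM (log2 0.27 ± 0.04, adjusted p = 3.44e-05). CA9 and VEGFA, both hypoxia targets, had 0.03 ± 0.06 and 0.08 ± 0.05 and did not pass.

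Among stress and immune lists, 4 of 28 ATF4 targets rose, against 1.13% of all genes (1 to 2 with any 1 library left out), SLC7A11 among them, while ATF3, DDIT3 and ASNS had log2 fold changes of -0.04, 0.01 and 0.09. In the unfolded protein response 1 of 20 rose, the chaperone gene HSPA5, by 0.22 ± 0.05 (adjusted p = 0.0131, up to 0.0739 without low-dose replicate 2 or 3 or high-dose replicate 1 or 3), and all 20 had log2 fold changes above 0, none larger than 0.26. Complete separation upwards was seen in 15 of the 28 ATF4 targets and 9 of these 20, against 11.4% of all genes, and downwards in 0 of either list. Of 25 NF-kB targets and chemokines 2 rose, CXCL8 by 0.41 ± 0.10 (adjusted p = 0.0133) and CXCL1 by 0.72 ± 0.21 (adjusted p = 0.0464). The CXCL8 call was lost without low-dose replicate 2, low-dose replicate 3 or high-dose replicate 2 (adjusted p up to 0.234) and the CXCL1 call without any 1 of the 6 libraries (adjusted p up to 0.257). NFKBIA, the NF-kB inhibitor that marks its activity, had 0.08 ± 0.06. Of 31 interferon-stimulated genes, 13 had high-dose values wholly below the low-dose ones, against 10.8% of all genes, and 0 wholly above. One passed, IFIT3, with a log2 fold change of -0.31 ± 0.09 (adjusted p = 0.0452), which was lost with any 1 library left out (adjusted p up to 0.206). The list's median was -0.24.

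The lipid, selenium and BMP lists held 1 to 4 calls each, against 1.13% of all genes that rose and 1.23% that fell. Of 25 sterol genes 2 rose, SQLE, an oxygenase of cholesterol synthesis, by 0.16 ± 0.04 and STARD4, a sterol carrier, by 0.22 ± 0.06, with adjusted p-values of 0.00632 and 0.0325. SQLE was lost without high-dose replicate 2 (0.0578), and STARD4 without that library, low-dose replicate 2 or 3 or high-dose replicate 3 (up to 0.307). Of 18 selenoproteins 2 rose, TXNRD1 and the glutathione peroxidase GPX2 (lost without low-dose replicate 1 or 2 or high-dose replicate 1 or 3, adjusted p up to 0.123), and 2 fell, SELENOH by 0.34 ± 0.08 and GPX1 by 0.23 ± 0.06. Both falls were lost without low-dose replicate 2 or 3 or high-dose replicate 2 or 3 (adjusted p up to 0.0794 and 0.194). LPIN1, of 17 fatty acid and glycerolipid genes, rose by 0.23 ± 0.06, and BMP4, of 13 genes of the BMP list, by 0.17 ± 0.05. LPIN1 was lost without any 1 of the 6 libraries and BMP4 without any but high-dose replicate 2 (adjusted p up to 0.153 and 0.257).

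In 8 lists edgeR called 0 genes. They were mitosis, MYC targets and ribosome biogenesis, heat shock chaperones, MHC class I presentation, tight junctions, proteasome subunits, mitochondrially encoded genes and nuclear genes of oxidative phosphorylation. For the 49 genes of the mitochondrial and nuclear respiratory lists, 0 had an unadjusted p under 0.05 and 0 passed in DESeq2. Of 30 proteasome genes, all with a log2 fold change above 0 and none above 0.17, 7 had an unadjusted p under 0.05 and 1 passed in DESeq2. Of 25 MYC and ribosome genes 5 had an unadjusted p under 0.05, all upwards, against 12.5% of all genes in either direction, and 0 passed in DESeq2. Complete separation upwards was nonetheless seen in 17 of 30 proteasome, 13 of 25 MYC and ribosome and 12 of 19 heat shock genes, against 11.4% of all genes. Downwards it was seen in 0, 0 and 1 of them. Of 17 tight junction genes 7 were wholly below and 1 wholly above, against 10.8% and 11.4% of all genes.

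**Figure D3:**
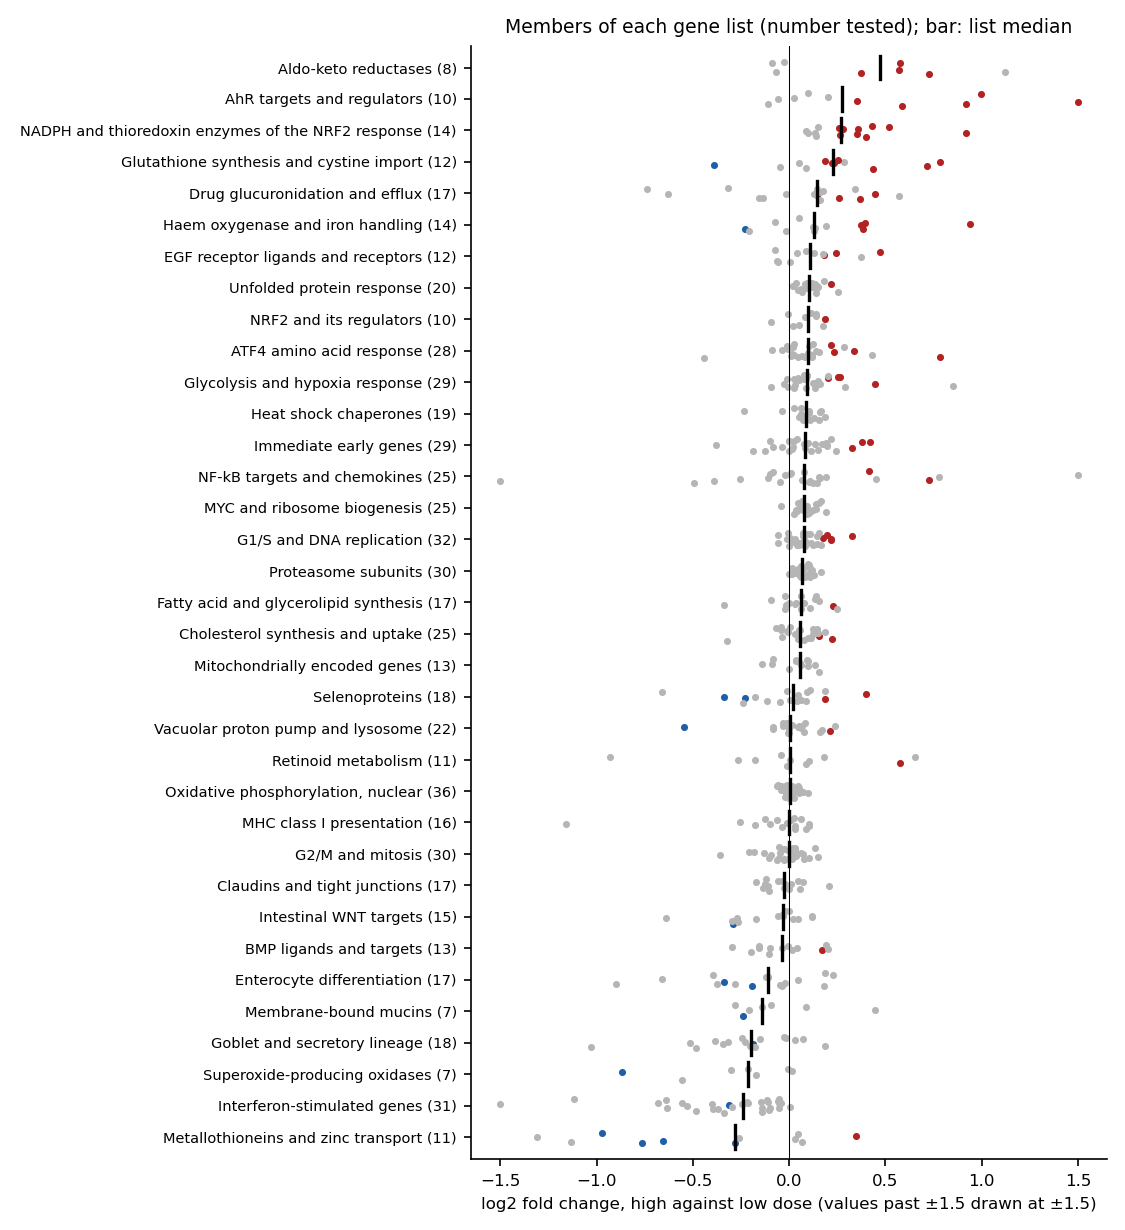
Log2 fold change at the high against the low dose for every measured member of 35 gene lists, ordered by list median (black bar). Red points rose and blue points fell at an adjusted p under 0.05, and grey points did not pass. Values past 1.5 in either direction are drawn at 1.5, which moves CYP1A1 (3.09) and CXCL5, SAA2 and XAF1, none of which passed (1.74, -1.74 and -4.46). The oxidant, AhR and aldo-keto reductase lists lie at the top and the metallothionein list, with a median of -0.28, at the bottom.

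Few genes were called between the low dose and the medium dose, which is 5 times the low one. Between 100 and 20 µg/mL, 1 of 17049 genes (0.00587%) passed in edgeR, BTG2, which was at 27.5, 28.0 and 29.4 CPM at the medium dose (log2 -0.31 ± 0.06, adjusted p = 0.0283). Without any 1 of the 6 libraries of that comparison 0 genes passed, with 429 to 740 at an unadjusted p under 0.05 against 566 (3.32%) with all libraries, and DESeq2 called 2. Between 500 and 100 µg/mL, 130 genes (0.763%) passed, 79 higher (0.463%) and 51 lower (0.299%) at the high dose. That count fell to 73 without medium-dose replicate 3 and to 77 without high-dose replicate 2. These comparisons share libraries with each other and with that of high against low, so their fold changes are given side by side and not compared by test except as below.

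For the genes that rose between low and high, the medium-dose mean lay between the others in 181 of 192. For those that fell it did so in 197 of 210. The median share of the change reached at the medium dose was 27.6% for rises and 32.5% for falls on the log2 scale, values that rest on genes chosen for their low and high levels. GCLM had 78.0, 71.1 and 79.9 CPM at the medium dose, above all 3 low-dose libraries, and log2 steps of 0.24 ± 0.07 from low to medium and 0.48 ± 0.07 from medium to high. CYP1A1 had 0.723, 0.864 and 0.862 CPM at the medium dose and steps of 0.20 ± 0.29 and 2.89 ± 0.24. HMOX1 had 11.9, 11.1 and 11.1 CPM and steps of 0.09 ± 0.10 and 0.85 ± 0.10. MT1E had 47.7, 40.7 and 45.7 CPM and steps of 0.09 ± 0.11 and -0.85 ± 0.12, with medium-dose values that overlapped the low-dose ones.

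A test of whether the second step differed from the first, chosen after the data had been seen, passed in 3 genes (0.0176%), 1 with a larger upward second step (0.00587%) and 2 with a larger downward one (0.0117%). CYP1A1 had a second step 2.69 ± 0.48 larger (adjusted p = 0.00798). DHRS2 was at 5.62, 5.77 and 5.54 CPM at the medium dose, level with the low dose, and had a difference between steps of -1.13 ± 0.19 (adjusted p = 0.00264). TGFBI, an extracellular matrix protein induced by TGF-beta, had a difference of -0.36 ± 0.07 (adjusted p = 0.0200). Without medium-dose replicate 2 none of the 3 passed, without medium-dose replicate 1 or 3 only DHRS2 did, and TGFBI was also lost without high-dose replicate 2 or 3 or low-dose replicate 1 (adjusted p up to 0.344).

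**Figure D4:**
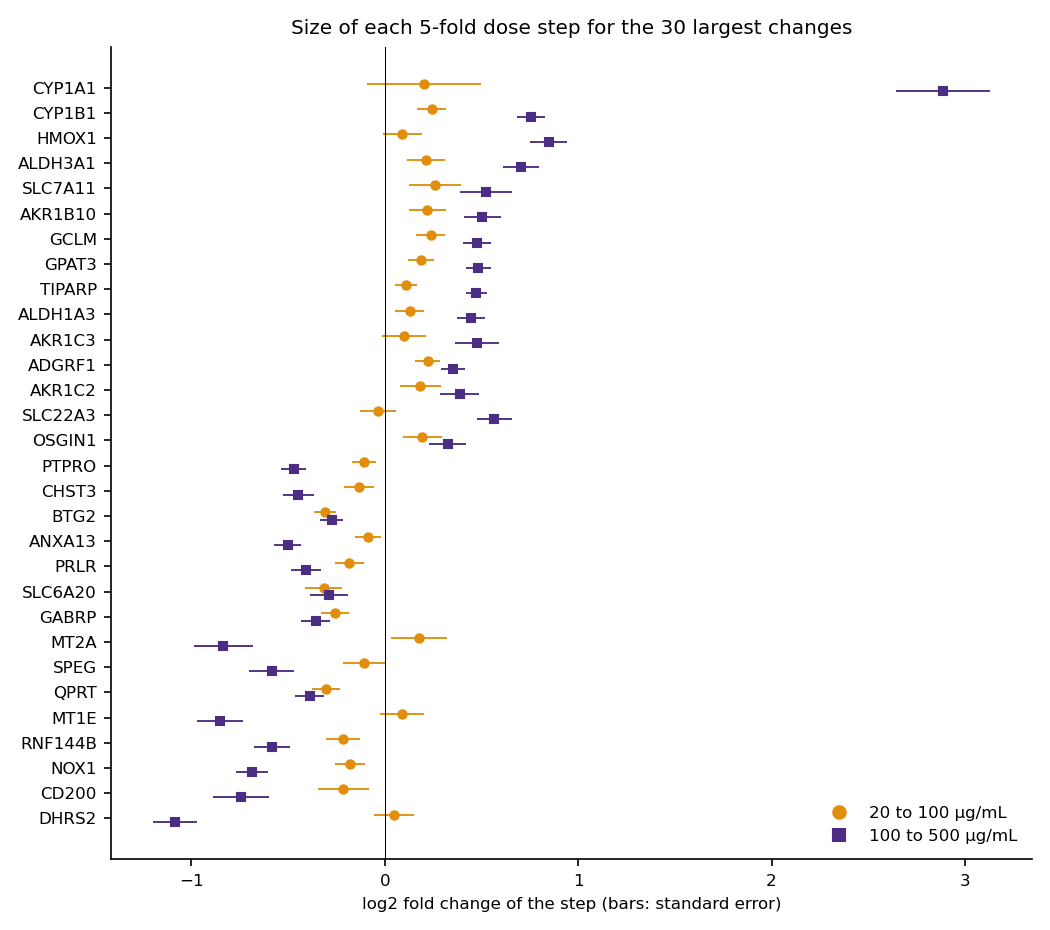
Log2 fold change of each 5-fold dose step for the 15 largest rises and 15 largest falls, with bars for the standard error. These are protein-coding genes that passed and whose higher group averaged 5 CPM or more. Circles are the step from 20 to 100 µg/mL and squares the step from 100 to 500 µg/mL. The second step is larger for most of the 30 genes, by far for CYP1A1 (2.89 against 0.20), while for BTG2 and SLC6A20 the steps are alike in size.

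The same dose contrast gave fewer calls in the 2 other extracts. Between 500 and 20 µg/mL, Saposhnikoviae Radix, the root of an umbellifer, had 5 genes higher (0.0293%) and 0 lower in edgeR, and Soyo-san, a formula that contains mint among its herbs, 15 higher (0.0880%) and 7 lower (0.0411%). These contrasts share no library with that of Menthae Herba. All 5 genes that rose with Saposhnikoviae Radix were among the 192 that rose with Menthae Herba (100% of 5, 2.60% of 192): CYP1B1, GCLM, AKR1C2, ALDH1A3 and ADGRF1. Of the 15 that rose with Soyo-san 13 did (86.7% of 15, 6.77% of 192), and of the 7 that fell 5 did (71.4% of 7, 2.38% of 210). Over the 48 oxidant defence genes the median log2 fold change was 0.077 for Saposhnikoviae Radix and 0.11 for Soyo-san, against 0.23 for Menthae Herba.

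Tested directly, the dose difference of Menthae Herba differed from that of Saposhnikoviae Radix in 13 genes (0.0763%) and from that of Soyo-san in 12 (0.0704%). The first count was 5 to 12 and the second 3 to 10 when 1 of the 12 libraries involved was left out. In a fit of the groups alone the first was 41 and the second 0, with 810 genes at an unadjusted p under 0.05, against 692 (4.06%) in the fit of all groups. NOX1 fell by 0.87 ± 0.08 with Menthae Herba and had -0.18 ± 0.07 with Saposhnikoviae Radix and -0.28 ± 0.08 with Soyo-san. The differences were -0.69 ± 0.11 (adjusted p = 0.0015) and -0.59 ± 0.12 (adjusted p = 0.0169). The first kept its call in all 12 fits that left out 1 library and the second in 8 of 12. With Saposhnikoviae Radix NOX1 was at 16.5, 17.1 and 17.2 CPM at the low dose and 15.1, 14.7 and 15.2 at the high dose, so those groups too were apart.

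CYP1A1 had 0.793, 0.793 and 0.541 CPM at the low and 1.59, 1.25 and 1.40 at the high dose of Saposhnikoviae Radix, a log2 fold change of 1.01 ± 0.27 that did not pass by itself. It had 0.613, 0.548 and 0.351 and 2.20, 2.38 and 1.09 CPM at the low and high doses of Soyo-san (1.89 ± 0.30, adjusted p = 0.00141). The rise with Menthae Herba was larger than that with Saposhnikoviae Radix by 2.08 ± 0.37 (adjusted p = 0.00385, kept in 12 of 12 fits that left out 1 library). Against Soyo-san the difference was 1.20 ± 0.41 and did not pass, with a 95% interval of 0.38 to 2.02. CYP1B1 rose more with Menthae Herba than with Soyo-san by 0.69 ± 0.10 (adjusted p = 0.000443, kept in 12 of 12) and than with Saposhnikoviae Radix by 0.50 ± 0.10 (adjusted p = 0.0262, kept in 4 of 12).

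Further genes passed in both tests. RNF144B, at -0.12 ± 0.08 with Saposhnikoviae Radix and -0.08 ± 0.09 with Soyo-san, differed by -0.68 ± 0.12 and -0.72 ± 0.13 (adjusted p = 0.00485 and 0.00545). DHRS2 differed by -0.73 ± 0.15 and -0.89 ± 0.16 (adjusted p = 0.0262 and 0.00545). RNF144B kept its calls in 11 of 12 fits each, being lost without Menthae Herba high-dose replicate 3 (adjusted p = 0.0608) and without Soyo-san high-dose replicate 3 (0.0768), and DHRS2 in 6 and 12 of 12. HMOX1 and TIPARP also passed in both but were lost in most fits that left out 1 library (adjusted p up to 0.238 and 0.326). For the shared oxidant genes the differences did not pass: that of GCLM was 0.32 ± 0.10 from Saposhnikoviae Radix (95% interval 0.11 to 0.53), and that of AKR1C2 was 0.02 ± 0.14 (-0.27 to 0.31). Intervals this wide do not show that the extracts act alike.

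**Figure D5:**
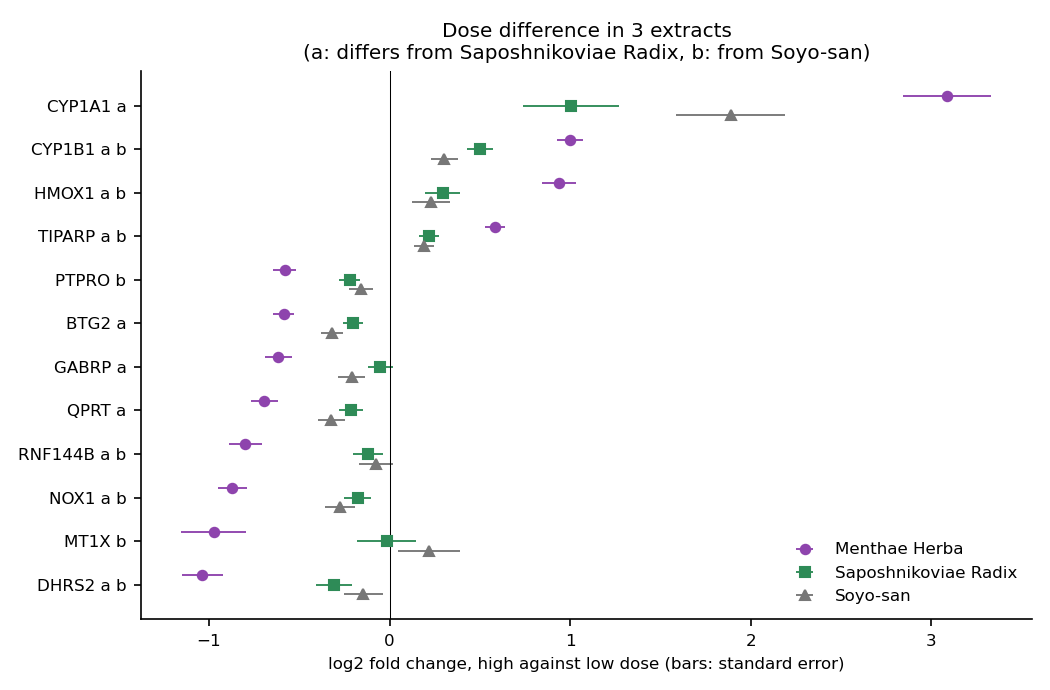
Log2 fold change at 500 against 20 µg/mL in 3 extracts for 12 named genes whose change with Menthae Herba differed from that with another extract (a, Saposhnikoviae Radix; b, Soyo-san; adjusted p under 0.05). Bars are standard errors. In every row the Menthae Herba point lies farthest from 0, an order favoured by the choice of genes that had passed with Menthae Herba. The distance between points is widest for CYP1A1.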

How the data were processed

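RNA of HT29 cells taken 24 h after treatment was made into libraries with a directional mRNA kit and sequenced as 100 bp pairs, per the labels' protocols. The authors deposited expected counts per gene, in which a read shared by several genes is apportioned among them, so near-identical genes depend on how it was apportioned. The submitters' processing notes name Trim Galore 0.6.5, STAR 2.7.3a, RSEM 1.3.3 and FastQC 0.11.9, and hg38 (GRCh38). Neither the annotation release nor the strandedness used in counting was given in the sources used. Counts were rounded to whole numbers (27.7% of values above 0 were not whole). The labels and the series' design text give different DMSO percentages for the vehicle, which is in no contrast but adds to the shared estimate of the spread.

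The fit covered the 57 libraries of the 19 groups with 3 replicates, so that all groups shared 1 estimate of the spread (38 residual degrees of freedom). In R 4.3.3, edgeR 4.0.16 kept 17049 of 60675 genes by filterByExpr (99.95% of counts), scaled by TMM and tested by quasi-likelihood with robust estimation. P-values were adjusted by Benjamini-Hochberg across all tested genes, with a threshold of 0.05. Differences between extracts and between dose steps were contrasts of the same fit. The script was tested on simulated counts.

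Gene symbols came from a table of gene names, and types and coordinates from GENCODE (GRCh38), which may differ from the annotation the authors used. Promoters are RefSeq sequences (GRCh38.p14, 67 of 85 named genes matched), and intervals are at 95%. The members and the 41 gene lists, of which 5 are cell type markers, were chosen with earlier results of these data known. The lists held 771 genes, 684 of them measured. Named genes were the 15 largest rises and 15 largest falls among protein-coding genes that passed, whose groups did not overlap and whose higher group averaged 5 CPM or more, and the 4 members of each list with the smallest p among those that passed. Other list members are given with their values, and some are not reported here. GGT1 and SLC40A1, which passed but lay outside this rule, were named after their values were seen, and only the bases before each start were searched. Genes named only because they passed a test of a difference are said to be so.

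Alternatives were scaling by DESeq2's size factors, testing without the low-count filter, the test of DESeq2 1.42.0, a fit of the groups compared alone, a fit of the 21 libraries whose names begin with B1 or 5 (vehicle, Menthae Herba and Saposhnikoviae Radix), a replicate block, and leaving out each library in turn. The 9 pairs of replicates within the Menthae Herba groups each differed by more than counting noise.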

Additional observations from a re-analysis of the deposited data

Results flagged for a closer look

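The results below were singled out because the change of a named gene between 500 and 20 µg/mL of Menthae Herba differed from its change under another extract, by a test of the difference itself in edgeR. Each value is the log2 fold change with Menthae Herba minus that with the other extract, with its standard error and adjusted p, and each is followed by the number of the 12 fits leaving out 1 library in which the call was kept.

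Against Saposhnikoviae Radix, 10 named genes did so. NOX1 differed by -0.69 ± 0.11 (adjusted p = 0.0015, 12 fits) and GABRP differed by -0.56 ± 0.10 (adjusted p = 0.00385, 12 fits). CYP1A1 differed by 2.08 ± 0.37 (adjusted p = 0.00385, 12 fits) and RNF144B differed by -0.68 ± 0.12 (adjusted p = 0.00485, 11 fits). CYP1B1 differed by 0.50 ± 0.10 (adjusted p = 0.0262, 4 fits) and DHRS2 differed by -0.73 ± 0.15 (adjusted p = 0.0262, 6 fits). QPRT differed by -0.48 ± 0.10 (adjusted p = 0.0262, 2 fits) and BTG2 differed by -0.38 ± 0.08 (adjusted p = 0.0262, 4 fits). HMOX1 differed by 0.64 ± 0.14 (adjusted p = 0.028, 2 fits) and TIPARP differed by 0.36 ± 0.08 (adjusted p = 0.0388, 2 fits).

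Against Soyo-san, 8 named genes did so. CYP1B1 differed by 0.69 ± 0.10 (adjusted p = 0.000443, 12 fits) and DHRS2 differed by -0.89 ± 0.16 (adjusted p = 0.00545, 12 fits). RNF144B differed by -0.72 ± 0.13 (adjusted p = 0.00545, 11 fits) and NOX1 differed by -0.59 ± 0.12 (adjusted p = 0.0169, 8 fits). HMOX1 differed by 0.71 ± 0.14 (adjusted p = 0.0206, 4 fits) and TIPARP differed by 0.39 ± 0.08 (adjusted p = 0.0222, 4 fits). MT1X differed by -1.19 ± 0.25 (adjusted p = 0.0291, 3 fits) and PTPRO differed by -0.42 ± 0.09 (adjusted p = 0.0452, 4 fits).

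The 2 sets share the Menthae Herba libraries, so a gene present in both rests in part on the same libraries both times. In a fit of the 12 libraries of Menthae Herba and Soyo-san alone 0 genes passed in edgeR, with 810 at an unadjusted p under 0.05. The Soyo-san libraries carry other library numbers than those of Menthae Herba, and whether that bears on these differences was not tested.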

How the results depend on the processing

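No named gene changed direction in any alternative, and 53 of the 85 kept their call in all 12. The 402 genes of high against low dose became 1002 among the 21 libraries named B1 or 5 alone (399 of the 402 shared), 674 in a fit of the 6 libraries alone (378 shared) and 251 to 295 when 1 library was left out. DESeq2's size factors gave 402, no filter 476 (308 of the 402 shared) and DESeq2's test 466 (381 shared). Medium against low gave 82 with no filter, 3 among the 21 libraries, 2 with the groups alone, 2 in DESeq2 and 0 to 0 when 1 library was left out. High against medium gave 239 with no filter, 323 among the 21 libraries, 286 with the groups alone and 73 to 95 when 1 library was left out. The difference from Saposhnikoviae Radix gave 100 with no filter (59 higher, 41 lower), 53 among the 21 libraries, 41 with the groups alone (25 higher, 16 lower), 20 in DESeq2 and 5 to 12 when 1 library was left out. The difference from Soyo-san gave 116 with no filter, 0 with the groups alone and 3 to 10 when 1 library was left out. The difference between dose steps, tested with alternatives chosen after seeing the data, gave 78 with no filter, 17 among the 21 libraries, 6 with the groups alone, 5 in DESeq2 and 0 to 3 when 1 library was left out. Among the lists, the settings other than leaving out 1 library gave up to 3 regulators of NRF2, 8 glucuronidation, 10 glycolysis, 8 G1/S, 10 ATF4, 6 unfolded protein, 5 immediate early, 5 EGF receptor, 7 sterol and 5 proteasome genes higher, and up to 6 goblet, 3 membrane mucin and 7 interferon genes lower. The cause of these shifts was not tested. With 3 libraries a group, genes of low count and small changes are the ones the depth and spread leave unresolved.

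Replicate numbers did not pair the high- and low-dose libraries: deviations of those with the same number correlated at -0.0137, 0.0018 and 0.011. Same-numbered medium- and low-dose libraries correlated at 0.026, 0.074 and 0.020. These values were small, but each of the 3 medium-dose libraries correlated best with the low-dose library of its own number. With a replicate block 390 genes passed in high against low (386 of the 402), 1 in medium against low, 129 in high against medium, 13 and 11 in the differences from Saposhnikoviae Radix and Soyo-san and 3 in that between steps.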

Other observations

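Genes that passed the test of a difference between extracts but lay outside the naming rule were chosen after their values were seen. CLEC3A, a C-type lectin, was at 76.4, 78.5 and 76.0 CPM at the low dose of Menthae Herba and 57.2, 54.2 and 54.5 at the high dose, a log2 fold change of -0.48 ± 0.05 that differed from that with Saposhnikoviae Radix by -0.39 ± 0.07 (adjusted p = 0.00385). LRP8, a lipoprotein receptor, went from 354, 346 and 351 to 437, 439.8 and 450.1 CPM and differed by 0.28 ± 0.06 (adjusted p = 0.0201), and CEMIP, a hyaluronan-binding protein, from 37.8, 38.04 and 37.2 to 48.1, 49.3 and 44.9, differing by 0.37 ± 0.08 (adjusted p = 0.0262). CLEC3A kept its call in 12 of 12 fits that left out 1 library, LRP8 in 4 and CEMIP in 3. Against Soyo-san, FGF19, the gut hormone that represses bile acid synthesis in the liver, went from 33.9, 38.02 and 37.3 to 40.1, 43.3 and 42.2 CPM with Menthae Herba and had a log2 fold change of -0.21 with Soyo-san, a difference of 0.41 ± 0.08 (adjusted p = 0.0112) that was kept in 8 of 12 such fits. UNKL differed by 0.37 ± 0.08 (adjusted p = 0.0339), kept in 2 of 12. NPIPA3 did not pass with Menthae Herba (log2 0.16 ± 0.22) and fell with Soyo-san (log2 -1.45 ± 0.27, edgeR adjusted p = 0.00767). Its difference was 1.61 ± 0.35 (adjusted p = 0.0474), kept in 1 of 12.

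Below 5 CPM, and so outside the naming rule, some called genes changed by 1 or more on the log2 scale, again chosen after their values were seen. SLC5A2, a sodium-glucose cotransporter, had a log2 fold change of 2.27 ± 0.58 at 0.120, 0.184 and 0.0316 CPM at the low dose and 0.711, 0.638 and 0.366 at the high dose. ADH1C, an alcohol dehydrogenase, had -1.41 ± 0.31 at 1.26, 1.40 and 0.853 and 0.512, 0.435 and 0.366 CPM. PON1, a paraoxonase, and SLC17A4, a phosphate and urate transporter of gut epithelium, had -1.16 ± 0.26 and -1.07 ± 0.25. IVL, involucrin of squamous epithelium, had -1.27 ± 0.36.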
